A study of Mus musculus with 12 samples.

Results

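The genes examined here encode NADPH oxidase subunits (Nox4, Cybb, Cyba, Ncf1, Ncf4 and Rac2) and xanthine dehydrogenase (Xdh), and were taken by symbol from a table of 27179 genes measured in mouse retinal pigment epithelium (RPE), the pigmented layer that lies beneath the photoreceptors. All 7 genes were found by their Entrez gene ID, and all 7 were among the 14219 genes that passed a filter on low values (an average of 20 or more in the deposited normalized table). They were chosen by their role as oxidant producers and by their difference between ages in these same counts, which was already known. The age differences of these 7 genes are therefore given as a description with no p. Whether a member passed the thresholds of the fit across all genes is stated only to describe it, and p-values are given for the members only on measures that the choice did not use.

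RPE cells were isolated from wild-type male C57BL/6J mice aged 5 months or 22 months, with 3 mice per age and no treatment in either group. The left and right eye of each mouse were sequenced separately, which gave 12 libraries of ribosomal RNA-depleted total RNA. Mice 1 and 2 of each age belonged to batch 1 and mouse 3 of each age to batch 2. The batches were independent experiments. RPE sheets were shaken off trypsin-treated eyecups after the retina had been removed, with no sorting step described, so the libraries could hold other cells of the eyecup. The paper regards its RPE samples as pure. It cites the enrichment of RPE genes among those that differed with age. It also cites western blots, reported elsewhere, that found an RPE protein but no rhodopsin.

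NADPH oxidases are membrane enzymes that pass electrons from NADPH across the membrane to oxygen and so produce superoxide or hydrogen peroxide on purpose. In phagocytes, Cybb is the catalytic subunit and Cyba its membrane partner, and the enzyme stays idle until cytosolic proteins, among them those encoded by Ncf1 and Ncf4, and the GTPase Rac2 join it. Nox4 is another catalytic subunit, which also needs Cyba but is active without the cytosolic proteins and releases mainly hydrogen peroxide. Xanthine dehydrogenase breaks down purines to uric acid and, in its oxidase form, yields superoxide and hydrogen peroxide.

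The upstream stretches of the membrane subunits are shown because these 3 genes form the membrane part of both oxidases, and their age differences were not of 1 size. The promoter table of RefSeq (GRCm38.p6) held windows for 4 members, Nox4, Cybb, Cyba and Ncf1. Each line holds the 250 bases before the RefSeq start site, 5′ to 3′ on the strand of the gene. Capitals mark matches to the letters GGGCGG (GC box) or CCAAT, read on either strand.
Cybb: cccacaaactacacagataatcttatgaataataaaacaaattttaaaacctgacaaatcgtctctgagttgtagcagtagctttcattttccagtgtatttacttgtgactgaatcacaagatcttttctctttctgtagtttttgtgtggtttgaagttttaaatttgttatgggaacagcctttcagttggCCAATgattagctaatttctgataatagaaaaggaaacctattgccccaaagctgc
Nox4: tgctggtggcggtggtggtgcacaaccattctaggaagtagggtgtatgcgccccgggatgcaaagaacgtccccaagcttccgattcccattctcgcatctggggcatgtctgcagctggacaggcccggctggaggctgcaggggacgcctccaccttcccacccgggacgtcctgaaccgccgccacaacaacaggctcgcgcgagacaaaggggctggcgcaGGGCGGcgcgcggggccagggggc
Cyba: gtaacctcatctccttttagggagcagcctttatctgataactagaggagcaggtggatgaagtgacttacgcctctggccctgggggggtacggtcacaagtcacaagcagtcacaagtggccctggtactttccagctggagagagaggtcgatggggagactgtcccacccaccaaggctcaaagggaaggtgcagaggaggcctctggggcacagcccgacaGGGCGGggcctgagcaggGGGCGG
The Cybb stretch is chrX:9469325-9469574 on the minus strand, the Nox4 stretch chr7:87246399-87246648 on the plus strand and the Cyba stretch chr8:122432941-122433190 on the minus strand. Matches were searched in windows of 300 bases, which add the first bases after the start site. Cybb held CCAAT at position -56 from the start site and no GC box, whereas Nox4 held a GC box at -24 and Cyba held GC boxes at -24 and -6. The core motif of the myeloid factor PU.1, GAGGAA, was matched in Cybb, on the opposite strand from position 10 after the start site, outside the printed stretch. Ncf1 held a GC box on the opposite strand at -42. None of these 4 windows held TATAAA. Of the 27025 promoter windows in the table, 35.9% held a GC box, 37.9% CCAAT, 28.3% GAGGAA and 14.2% TATAAA, so each motif is common. A match describes the letters only.

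Levels are given as CPM, read counts relative to the library size, which is scaled by the trimmed mean of M values (TMM) of edgeR, with the raw counts of both eyes of a mouse summed, because they come from one animal. To compare levels between genes, CPM was divided by the length of the exons in kilobases. On this scale Cyba was the most abundant member at both ages, with 44.8 ± 18.4 CPM per kilobase at 5 months and 62.0 ± 7.28 at 22 months (SD, n = 3 mice). Cybb followed with 15.4 ± 4.85 CPM per kilobase at 5 months and 27.9 ± 1.19 at 22 months. Cyba and Cybb did not overlap with each other or with any other member at either age. Xdh stood at 5.90 ± 0.116 and 7.99 ± 0.588 CPM per kilobase, and Ncf1 at 4.72 ± 1.77 and 7.45 ± 0.432. The Xdh and Ncf1 levels overlapped between mice at both ages. Rac2 had 3.43 ± 1.76 and 5.42 ± 0.475 CPM per kilobase, Ncf4 2.02 ± 1.24 and 3.63 ± 0.342, and Nox4, the least abundant, 1.10 ± 0.227 and 2.96 ± 0.884. At 5 months each neighbour in the order from Xdh down to Nox4 overlapped the next. At 22 months Ncf1, Rac2 and Ncf4 were apart from one another, and Ncf4 and Nox4 overlapped.

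Ages were compared with edgeR's quasi-likelihood test on the summed counts of the 6 mice, with batch in the model. To be called, a gene needed an adjusted p (Benjamini-Hochberg) below 0.05 together with an absolute log2 fold change above 0.25. Of all tested genes 7.67% were called, 5.41% higher and 2.26% lower at 22 months. Of the 7 members 3 were called, Nox4, Cybb and Xdh, all higher at 22 months, and 4 were not, Cyba, Ncf1, Ncf4 and Rac2. The log2 fold change was above 0 in 7 of 7 members, with a median of 0.76 against -0.01 over all tested genes. Nothing is read from these counts, because the contrast was known when the members were chosen. When mouse number replaced batch as a block, 0 of the 7 were called, against 5.82% of all tested genes, at log2 fold changes of 1.40 for Nox4, 0.90 for Cybb and 0.43 for Xdh, while all 7 were called when each eye was taken as a sample in edgeR, a fit that called 20.8% of all tested genes. All 7 log2 fold changes stayed above 0 in the 17 alternatives fitted. These all drew on the same 6 mice, and the alternative without a fold threshold has the fold changes of the main fit.

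Nox4 (Entrez ID 50490, chr7:87244430-87398710), the constitutively active catalytic subunit, had 10.5, 7.06 and 10.3 CPM in 5-month mice 1 to 3, and 24.0, 33.1 and 18.2 CPM in 22-month mice 1 to 3. Every 22-month mouse was above every 5-month mouse, and the batch 2 mouse was the lowest of the old mice. The mean was 9.29 ± 1.92 CPM at 5 months and 25.1 ± 7.49 CPM at 22 months (SD, n = 3 mice), a fold change of 2.65 (log2 1.41, SE 0.261). Nox4 was the only member whose single eyes did not overlap between ages. They ran from 6.20 to 11.1 CPM with a median of 9.76 at 5 months, and from 17.6 to 35.9 CPM with a median of 24.0 at 22 months. Of all tested genes, 1.27% had eyes apart in this direction.

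Cybb (Entrez ID 13058, chrX:9435252-9487766), the catalytic subunit of the phagocyte enzyme, had 68.6, 78.0 and 121 CPM in 5-month mice 1 to 3. In 22-month mice 1 to 3 it had 168, 164 and 155 CPM. The old mice lay close together, while 5-month mouse 3, from batch 2, stood between the other young mice and the old ones. The means of 89.4 ± 28.2 and 162 ± 6.94 CPM gave a fold change of 1.87 (log2 0.90, SE 0.18). Single eyes overlapped, from 66.3 to 129 CPM with a median of 78.2 at 5 months and from 122 to 215 CPM with a median of 163 at 22 months.

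Cyba (Entrez ID 13057, chr8:122424771-122432940), the membrane partner of both catalytic subunits, had 33.6, 37.5 and 68.5 CPM in the young mice and 62.0, 58.5 and 73.0 CPM in the old mice. The ages overlapped, because 5-month mouse 3 was above 22-month mice 1 and 2. The difference of 0.53 on the log2 scale (SE 0.149) was not called. Cyba shares 8155 bases with the antisense gene Gm20388, and the strand setting of the counting is not given in the sources used here, so reads of the pair may not be separable.

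Ncf1 (Entrez ID 17969, chr5:134220053-134229628) encodes the organizer protein that, once phosphorylated, carries the cytosolic subunits to the membrane. It had 12.4, 14.9 and 24.6 CPM at 5 months and 27.9, 28.5 and 25.5 CPM at 22 months. The mice did not overlap, but 5-month mouse 3 and 22-month mouse 3 were 0.05 apart on the log2 scale. The log2 fold change was 0.71 (SE 0.219), not called. Ncf1 overlaps the antisense gene Gtf2ird2 over 4303 bases. Gtf2ird2 had 13.8 ± 0.203 CPM at 5 months and 14.3 ± 0.395 CPM at 22 months (adjusted p = 0.716 in edgeR).

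Ncf4 (Entrez ID 17972, chr15:78244164-78262582), whose protein binds a phosphoinositide lipid of phagosome membranes, was the least counted member. Its raw counts were 43, 71 and 169 in 5-month mice 1 to 3 and 184, 161 and 153 in 22-month mice 1 to 3. In CPM these were 2.04, 3.37 and 6.87 against 8.03, 7.32 and 6.65. The mice overlapped, since 5-month mouse 3 exceeded 22-month mouse 3. The log2 fold change of 0.96 had the widest error of the members (SE 0.375) and was not called.

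Rac2 (Entrez ID 19354, chr15:78559169-78572783), the GTPase of blood cells that switches the complex on, had 7.72, 7.25 and 17.0 CPM at 5 months and 16.2, 15.7 and 18.5 CPM at 22 months. As for Cyba, 5-month mouse 3 was above 22-month mice 1 and 2. The log2 fold change was 0.76 (SE 0.212), not called.

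Xdh (Entrez ID 22436, chr17:73883895-73950397) had 53.0, 54.9 and 54.7 CPM in the young mice and 78.6, 73.6 and 67.8 CPM in the old mice. The young mice lay closer together than for any other member, 5-month mouse 3 included. The means of 54.2 ± 1.06 and 73.3 ± 5.40 CPM gave a fold change of 1.35 (log2 0.43, SE 0.0711), the smallest of the 7 on the log2 scale. Single eyes touched at their edges, with 50.5 to 58.0 CPM and a median of 54.2 at 5 months against 57.8 to 89.1 CPM and a median of 73.2 at 22 months. A processed pseudogene, CT025731.2, lies within Xdh on the same strand over 662 bases.

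In all, 4 of 7 members (Nox4, Cybb, Ncf1 and Xdh) had mice that did not overlap between ages, where 6.19% of tested genes did so with 22 months higher.

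**Figure D1:**
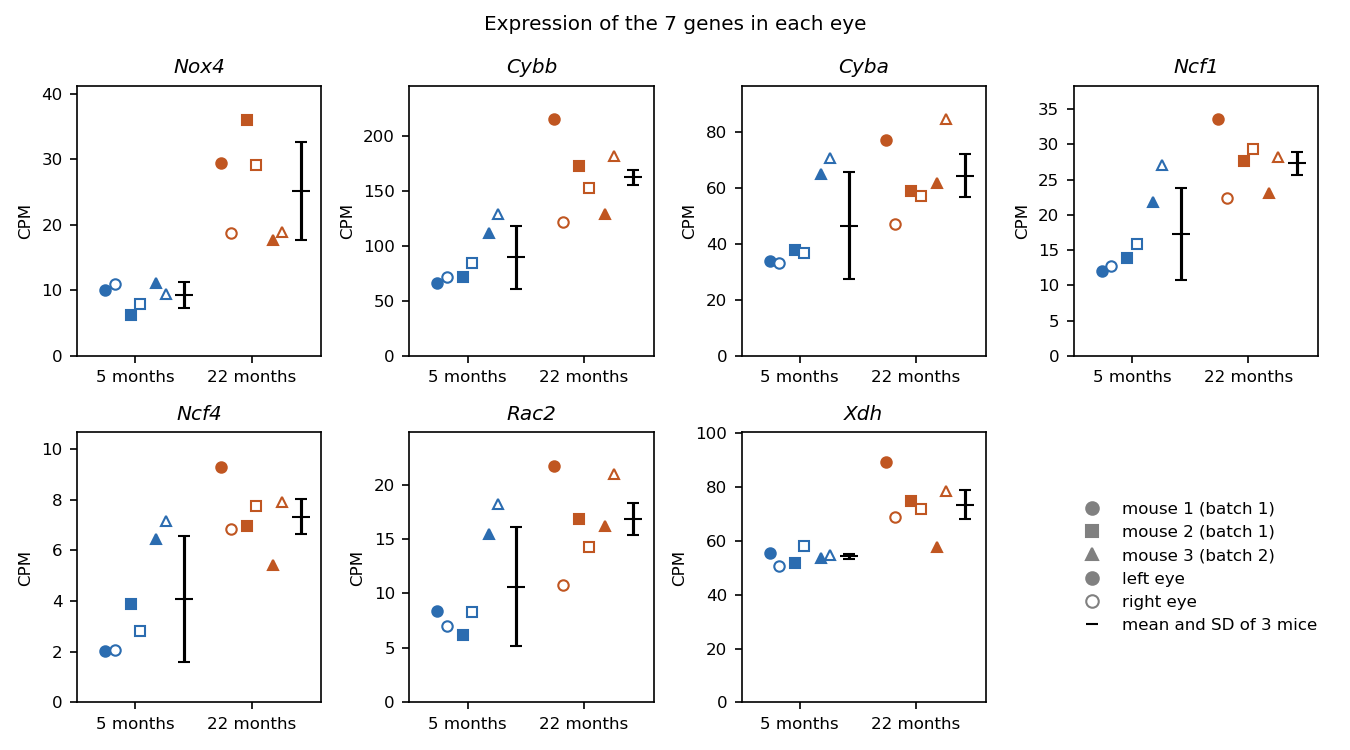
CPM of each member (y axis) in single eyes by age (x axis); circles and squares are mice 1 and 2 of batch 1, triangles mouse 3 of batch 2, filled symbols left eyes and open symbols right eyes, and black bars the mean and SD of 3 mice. Nox4 eyes reach 11.1 CPM at 5 months and begin at 17.6 CPM at 22 months. By contrast, 5-month mouse 3 lies within or near the old eyes for Cybb, Cyba, Ncf1, Ncf4 and Rac2.

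The age difference was then taken within each batch, 2 mice against 2 in batch 1 and 1 against 1 in batch 2. In batch 1 the log2 fold changes were 1.70 for Nox4, 1.18 for Cybb, 0.76 for Cyba, 1.05 for Ncf1, 1.50 for Ncf4, 1.09 for Rac2 and 0.50 for Xdh. In batch 2 they were 0.82 for Nox4, 0.35 for Cybb, 0.09 for Cyba, 0.05 for Ncf1, -0.05 for Ncf4, 0.13 for Rac2 and 0.31 for Xdh. The age difference was smaller in batch 2 for 7 of 7 members. The largest batch 2 values were those of Nox4, Cybb and Xdh, and the cytosolic subunits Ncf1 and Ncf4 were nearest to 0. The share of all tested genes with a smaller difference in batch 2 is not given here. The order is not particular to the members. The leukocyte genes Ptprc, Coro1a, Laptm5, Cd52, Cd53 and Cd48 each had it too, with 1.09 in batch 1 and 0.34 in batch 2 for Ptprc. A single pair of mice stands behind each batch 2 value, which has no replicate check.

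The difference of the age effect between batches, a measure the choice did not use, was tested as an interaction in edgeR with 2 residual degrees of freedom. Both come from the batch 1 mice, so the single batch 2 mouse of each age is assumed to vary as they do, and the p-values carry that assumption. None of the 7 members and 0 of all 14219 genes passed a Benjamini-Hochberg adjusted p of 0.05. At an unadjusted p under 0.05 there were 5 of the 7 members, against 16.7% of all tested genes. Of these, the interaction was -0.83 for Cybb (95% confidence interval -1.23 to -0.44, adjusted p = 0.177), -0.97 for Rac2, -0.997 for Ncf1, -0.67 for Cyba and -1.55 for Ncf4 (-2.70 to -0.41, adjusted p = 0.221). It was -0.89 for Nox4 (-1.96 to 0.19, adjusted p = 0.361) and -0.19 for Xdh (-0.50 to 0.13, adjusted p = 0.49). DESeq2 called the interaction for Cybb alone among the members (adjusted p = 0.0235), and for 146 lower and 83 higher genes of all those tested (1.61%).

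**Figure D2:**
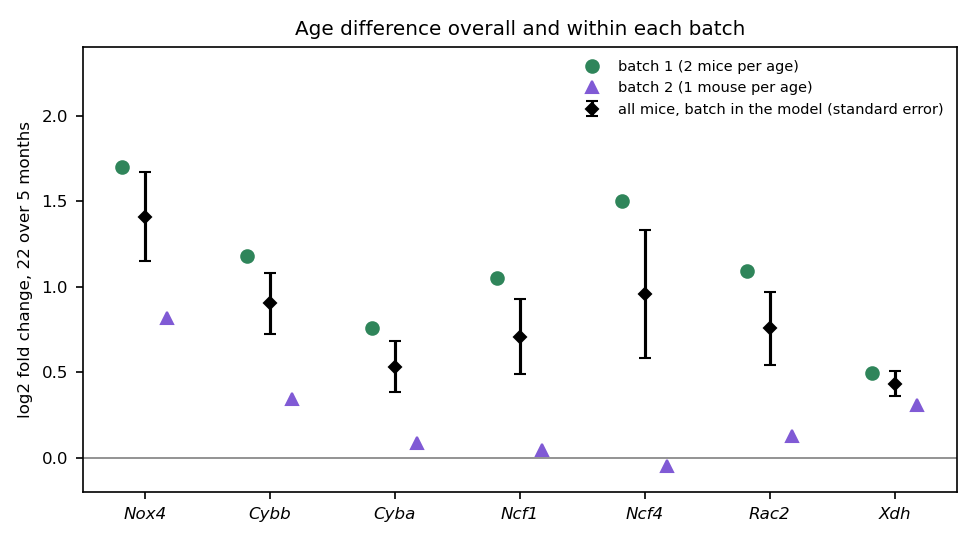
Log2 fold change of 22 over 5 months (y axis) for each member (x axis) in batch 1 (circles, 2 mice per age), in batch 2 (triangles, 1 mouse per age) and over all mice with batch in the model (diamonds, bars are the standard error). All triangles lie below the circles, from -0.05 for Ncf4 to 0.82 for Nox4.

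Levels also differed between batches, taken as an average over the ages. The batch term of the same edgeR fit, batch 2 against batch 1, called 51.9% of all tested genes (26.3% higher and 25.6% lower, with 60.3% at an unadjusted p under 0.05), and 2 of the 7 members, both higher. No further member had an unadjusted p under 0.05. Cyba was higher in batch 2 by 0.62 on the log2 scale (95% confidence interval 0.24 to 1.00, adjusted p = 0.0179) and Rac2 by 0.71 (0.17 to 1.24, adjusted p = 0.0368). For both genes 5-month mouse 3 was above 22-month mice 1 and 2. The batch difference was larger at 5 months, and each batch 2 level rests on 1 mouse per age. Rac2 had 7.72 and 7.25 CPM in batch 1 against 17.0 CPM in batch 2 at 5 months. At 22 months it had 16.2 and 15.7 against 18.5 CPM. Cyba had 33.6 and 37.5 against 68.5 CPM at 5 months, and 62.0 and 58.5 against 73.0 CPM at 22 months. The other members were not called. The estimates were 0.33 for Cybb (-0.13 to 0.79, adjusted p = 0.186), 0.37 for Ncf1 (-0.19 to 0.93, adjusted p = 0.217) and 0.59 for Ncf4 (-0.36 to 1.54, adjusted p = 0.241). They were -0.21 for Nox4 (-0.89 to 0.47, adjusted p = 0.549) and -0.07 for Xdh (-0.26 to 0.11, adjusted p = 0.447). Nox4 and Xdh, the members outside the phagocyte complex, had the estimates below 0.

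Both eyes of a mouse gave a second measure independent of the choice. Right and left eyes were compared in edgeR across the 12 libraries, with the mouse in the model. No member was called, none had an unadjusted p under 0.05, and 0 of all 14219 genes were called (0.928% at an unadjusted p under 0.05). DESeq2 also called 0 members. The member estimates ran from -0.12 for Nox4 (95% confidence interval -0.43 to 0.19) to 0.06 for Ncf1 (-0.23 to 0.35), with adjusted p = 1.0 for every member. The widest interval, that of Rac2, was -0.53 to 0.37.

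Within single mice the eyes could still differ by more than this mean. In 22-month mouse 1 the left eye was higher for 7 of 7 members, by 1.01 on the log2 scale for Rac2, where it had 21.7 CPM against 10.8 CPM, and by 0.82 for Cybb, with 215 against 122 CPM. The smallest of these differences was 0.37, for Xdh. In 22-month mouse 3 the right eye was higher for 7 of 7 members, by 0.10 for Nox4 up to 0.54 for Ncf4. In the 5-month mice the largest difference between eyes was 0.47, for Ncf4 in mouse 2, and the direction was mixed in each mouse. In 22-month mouse 2 the left eye was higher for 5 of the members and the right eye for 2. Genes of several cell types, whose lists are described next, differed between eyes in the same direction as the members in 22-month mice 1 and 3. Leukocyte genes summed to 437 CPM in the left and 255 CPM in the right eye of 22-month mouse 1, and to 287 and 410 CPM in those of mouse 3. Macrophage and microglia genes had 5207 and 3223 CPM in mouse 1 and 4581 and 6089 CPM in mouse 3. Endothelial genes (1402 and 1133 CPM, then 1372 and 1807 CPM), pericyte and smooth muscle genes (1121 and 816 CPM, then 899 and 1194 CPM) and fibroblast genes (5091 and 3902 CPM, then 4608 and 5812 CPM) had the same order. So did surface epithelium genes, with 175 and 31.1 CPM in mouse 1 and 5.01 and 179 CPM in mouse 3. Rod photoreceptor genes moved the opposite way, with 8441 and 27490 CPM in the eyes of mouse 1 and 4453 and 1536 CPM in those of mouse 3. RPE genes had 17220 and 8991 CPM in mouse 1 and 40270 and 35270 CPM in mouse 3. The part of these cell types in the differences between eyes was not tested.

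Subunits of the phagocyte oxidase other than Cyba, which also partners Nox4, are made mainly by leukocytes, macrophages and microglia. Genes of other cell types were therefore read in the same libraries. In bulk RNA, fewer cells of a type and less RNA per cell cannot be told apart. The 12 RPE genes all passed the filter and as a sum were abundant at both ages. They summed to 28470 to 43890 CPM in 5-month mice and 13090 to 37670 CPM in 22-month mice. In edgeR 1 of 12 was called lower (Tyrp1) and 9 were lower at an unadjusted p under 0.05. Best1 was low, with a mean of 2.82 CPM at 5 months and 3.67 CPM at 22 months. The 6 genes common to all leukocytes (Ptprc, Coro1a, Laptm5, Cd52, Cd53 and Cd48) summed to 174, 198 and 315 CPM in 5-month mice 1 to 3 and to 345, 362 and 347 CPM in 22-month mice 1 to 3. Of these 1 of 6 was called higher, Ptprc, with a list median log2 fold change of 0.61. In edgeR 5 of the 6 were higher and 0 lower at an unadjusted p under 0.05. Of all tested genes 31.1% passed that level in either direction. Macrophage and microglia genes summed to 1848 to 4320 CPM at 5 months and 4202 to 5311 CPM at 22 months. Lyz2 alone made up most of these sums, with 980 to 2650 CPM and 2913 to 3597 CPM. In this list 2 of 17 were called higher (Cx3cr1 and Tmem119), with a median of 0.57. At an unadjusted p under 0.05 in edgeR, 13 of the 17 were higher and 0 lower. The highest 5-month mouse was mouse 3 for both lists, as it was for Cybb, Cyba, Ncf1, Ncf4 and Rac2. Neutrophil genes, of which 1 of 12 passed the filter, summed to 9.71 to 55.9 CPM at 5 months and 15.9 to 18.6 CPM at 22 months, the highest value being that of 5-month mouse 3, and Elane had no count in any library. T cell genes summed to 3.37 to 4.06 CPM at 5 months and 9.14 to 26.1 CPM at 22 months, with 1 of 2 tested called higher. B cell genes summed to 11.4 to 15.5 and 24.3 to 47.4 CPM, with 0 of 2 tested called in edgeR and both higher at an unadjusted p under 0.05. Both lists were apart between ages. Rod genes were called higher for 12 of 13 (1668 to 4187 CPM against 2999 to 17610 CPM) and mast cell genes for 5 of 5 tested (13.2 to 15.2 CPM against 62.1 to 231 CPM). Surface epithelium genes were called higher for 3 of 6 tested (2.32 to 13.2 CPM against 34.9 to 104 CPM). Endothelial genes were not called (0 of 12 in edgeR, where 4 were lower and 1 was higher at p under 0.05 before adjustment), and pericyte and smooth muscle genes were called for 1 of 10.

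Set against the leukocyte sum, the members fell into different patterns. Per 100 CPM of the 6 leukocyte genes, Ncf1 had 7.13 to 7.81 CPM in the young mice and 7.35 to 8.09 CPM in the old mice. Rac2 had 3.67 to 5.38 and 4.35 to 5.33 CPM, and Cyba 19.0 to 21.7 and 16.2 to 21.0 CPM. These 3 ratios overlapped between ages. Ncf4 overlapped too, with 1.17 to 2.18 and 1.92 to 2.33 CPM. Cybb was the member whose ratio to leukocyte genes did not overlap, with 38.5 to 39.6 CPM in the young mice and 44.5 to 48.7 CPM in the old mice. The Nox4 ratio overlapped, with 3.27 to 6.03 CPM at 5 months and 5.24 to 9.14 CPM at 22 months, and so did that of Xdh, with 17.3 to 30.5 and 19.5 to 22.8 CPM. The pattern changed with the genes set below the line. Per 100 CPM of macrophage and microglia genes Cybb overlapped, with 2.81 to 3.71 CPM at 5 months and 2.91 to 4.0 CPM at 22 months. Cyba was apart and lower in the old mice on this scale, with 1.59 to 1.82 against 1.20 to 1.47 CPM. Most of this macrophage and microglia sum was Lyz2, with 980 to 2650 CPM at 5 months and 2913 to 3597 CPM at 22 months. Ratios to the sum without Lyz2 were not taken, so these 2 results may not hold for the other genes of the list. Per 100 CPM of endothelial genes Nox4 (0.475 to 0.718 against 1.15 to 2.60 CPM), Cybb (4.38 to 8.45 against 9.77 to 13.3 CPM) and Xdh (3.38 to 3.80 against 4.28 to 6.24 CPM) were apart and higher in the old mice. Per 100 CPM of pericyte and smooth muscle genes these 3 were again apart, with 0.766 to 1.26 against 1.75 to 2.88 CPM for Nox4, and so were Ncf1 and Ncf4. Per 100 CPM of RPE genes every member but Xdh was apart and higher in the old mice. Cyba had 0.111 to 0.156 against 0.194 to 0.473 CPM, while Xdh overlapped, with 0.125 to 0.186 against 0.18 to 0.6 CPM. Per 100 CPM of surface epithelium genes Cybb, Cyba, Ncf1, Rac2 and Xdh were apart and lower in the old mice, and Nox4 and Ncf4 overlapped. This sum was low and uneven, with 2.32 to 13.2 CPM in the young mice and 34.9 to 104 CPM in the old mice. Ratios to it therefore spread widely, as for Cybb with 521 to 5240 CPM at 5 months and 162 to 471 CPM at 22 months. The part of cell makeup in the age differences was not tested.

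Across the 12 libraries, with the mean of each batch subtracted from log2 CPM, the 10 pairs among Cybb, Cyba, Ncf1, Ncf4 and Rac2 had Pearson correlations of 0.83 to 0.97 (median 0.95). With the mean of each batch and age subtracted, so that only differences within groups remained, they had 0.20 to 0.93 (median 0.77). For Nox4 with those 5 genes the range was 0.74 to 0.90 in the former case and -0.45 to 0.57 (median 0.21) in the latter. Xdh kept 0.49 to 0.88 (median 0.82) in the latter. Libraries share mice, depth and cell makeup, so these values describe the libraries. In these data Nox4 varied least with the phagocyte subunits once age and batch were removed. After the same subtraction, the correlation with the leukocyte score was 0.97 for Cybb, 0.96 for Cyba, 0.90 for Xdh, 0.90 for Rac2, 0.86 for Ncf1, 0.56 for Ncf4 and 0.32 for Nox4. Other lists varied with the members as well. With pericyte and smooth muscle genes the values ran from 0.35 for Ncf4 to 0.85 for Cybb, with fibroblast genes from 0.28 for Ncf4 to 0.88 for Rac2, and with endothelial genes from 0.23 for Ncf4 to 0.82 for Xdh. With rod genes they were below 0 for every member, from -0.82 for Ncf1 to -0.22 for Nox4. Nox4 had higher values with fibroblast (0.58), pericyte and smooth muscle (0.58) and RPE genes (0.57) than with leukocyte genes.

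The tested genes whose log2 CPM was most like that of each member over the 12 libraries, after the batch means were subtracted, were named by Pearson correlation. Age means were not subtracted here, so the known age difference of the members enters these values. For Nox4 they were Ltbp2 (0.98), Cthrc1 (0.97) and Cyp26b1 (0.96). For Cybb they were Ctss, Ptprc and Mpeg1 (all 0.99). For Cyba they were Esyt1 (0.99), C1qb (0.99) and Arhgap30 (0.98), and for Ncf1 Itgb2 (0.99), Slamf7 (0.986) and Vav1 (0.985). For Ncf4 they included Cx3cl1 (0.98) and Ncf1 (0.95), and for Rac2 they were Ptafr (0.97), Esyt1 (0.97) and Psd4 (0.97). For Xdh they were C1s1 (0.975), AI467606 (0.971) and H2-D1 (0.969).

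**Figure D3:**
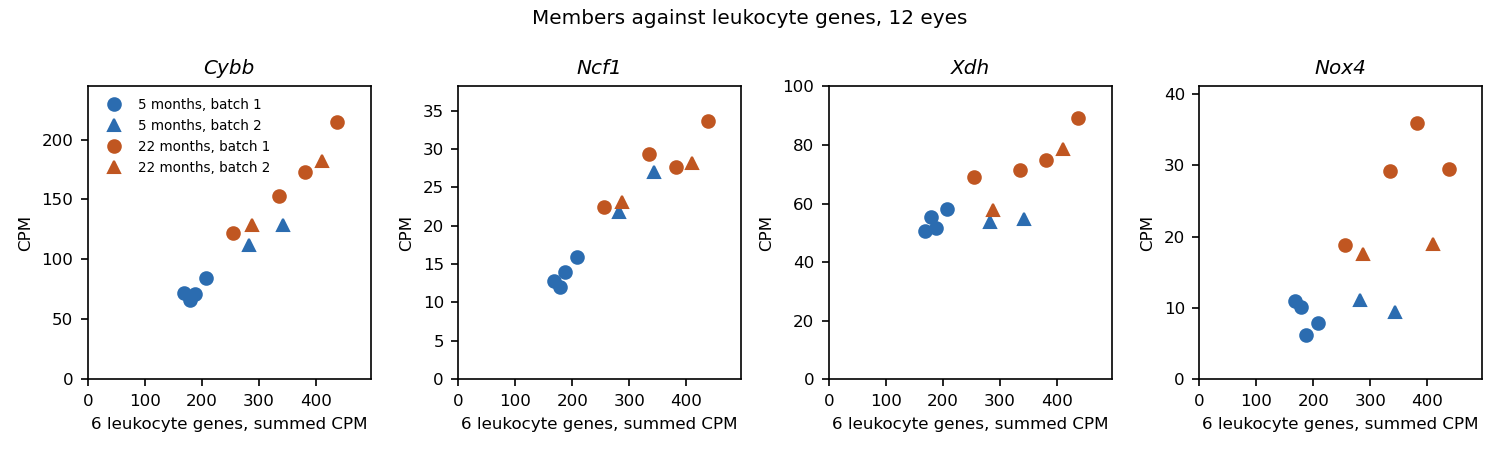
CPM of Cybb, Ncf1, Xdh and Nox4 (y axes) against the summed CPM of 6 leukocyte genes (x axis) in the 12 single eyes, blue for 5 months and orange for 22 months, circles for batch 1 and triangles for batch 2. Cybb and Ncf1 climb with the leukocyte sum at both ages, and the Nox4 eyes of the old mice, from 17.6 CPM upward, lie above every young eye.

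Other genes of the same pathways were read next. Of 17 other oxidase subunits, maturation factors and GTPases, 10 passed the filter and 0 were called in edgeR, with an unadjusted p under 0.05 in 2 that were lower and 0 that were higher, and a median log2 fold change of -0.10. Cybc1, a chaperone of the Cybb and Cyba dimer, had 27.2 ± 7.59 and 26.9 ± 3.52 CPM (log2 fold change 0.01, adjusted p = 0.969). Rac1, the widely expressed relative of Rac2, stood at 76.8 ± 11.3 CPM per kilobase at 5 months and 63.0 ± 12.8 at 22 months, above Rac2 on that scale, and had a log2 fold change of -0.29 (adjusted p = 0.109). Poldip2, an interactor of the Nox4 complex, had -0.22 (adjusted p = 0.0786). The other catalytic subunits had few reads, with 15 counts for Nox1, 8 for Nox3, 127 for Duox1 and 24 for Duox2 over all 12 libraries.

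Of 25 upstream activators of the phagocyte oxidase, all 25 passed the filter, 0 were called lower and 2 were called higher, with a median log2 fold change of 0.38. Protein kinases C phosphorylate the cytosolic subunits. Prkcd rose from 38.7 ± 3.98 to 56.2 ± 2.30 CPM (log2 fold change 0.54, SE 0.0622, adjusted p = 0.0226), and Prkcb rose from 122 ± 22.2 to 198 ± 27.6 CPM (0.69, SE 0.127, adjusted p = 0.0386). At an unadjusted p under 0.05, 14 of the 25 were higher and 0 lower, where 31.1% of all tested genes passed in either direction. Itgb2 and Vav1 of this list were also among the genes most like Ncf1 across the libraries, a likeness that includes the age difference. The part of cell makeup in the values of this list was not tested.

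The purine breakdown and molybdenum cofactor genes, which act around Xdh, did not include a called gene. Of 27 listed, 22 were tested, 0 were called in edgeR (before adjustment, p was under 0.05 for 5 lower and 2 higher genes), and the median log2 fold change was -0.06. The smallest p values belonged to Mocs2, a molybdopterin synthase gene, with -0.35 (adjusted p = 0.0623), and Ampd3, an AMP deaminase, with 0.42 (adjusted p = 0.0768).

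Among 31 other oxidant-producing enzymes, 24 were tested and 1 was called, Lox, which crosslinks collagen and elastin and releases hydrogen peroxide. Lox rose from 55.1 ± 9.55 to 151 ± 42.8 CPM (log2 fold change 1.44, SE 0.241, adjusted p = 0.0336). Among 24 enzymes that remove superoxide and peroxide, 1 was called lower and 1 higher, with a median of -0.21. Sod1, the cytosolic superoxide dismutase, fell from 166 ± 58.9 to 127 ± 52.2 CPM (-0.41, SE 0.0816, adjusted p = 0.0444). Sod3, the extracellular superoxide dismutase, rose from 31.5 ± 4.92 to 53.9 ± 12.8 CPM (0.75, SE 0.143, adjusted p = 0.0419). Taking these 5 lists as a whole, 5 of 105 tested genes were called, 4 higher and 1 lower, where 7.67% of all tested genes were called.

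**Figure D4:**
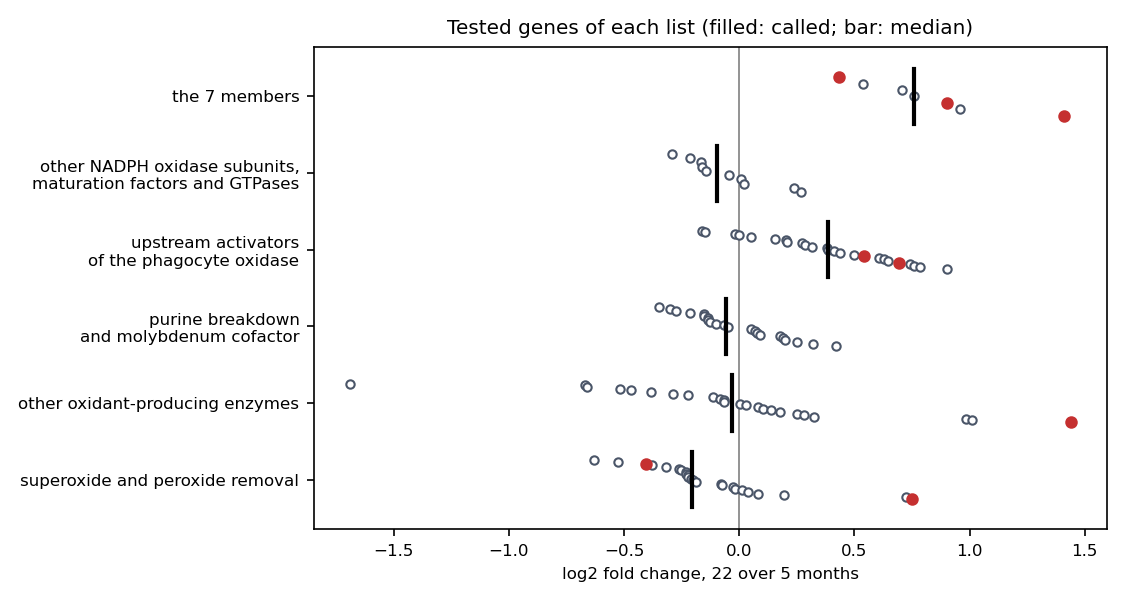
Log2 fold change of 22 over 5 months (x axis) for each tested gene of the members and of the 5 related lists (rows), filled symbols for called genes and black bars for list medians. The members' bar stands at 0.76 and that of the upstream activators at 0.38, while the other bars lie between -0.21 and -0.03.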

How the data were processed

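RNA of 12 libraries was analysed. Per the paper and the processing notes, the authors used FastQC, Trimmomatic, HISAT2 (mm10) and featureCounts. Tool versions and the strand option were not given in the sources used here. Deposited tables hold raw counts, batch-corrected values (treated as estimated counts, made by the authors with ComBat-seq) and the normalized signal the authors made by dividing these by DESeq2 size factors. Each table has 27179 Entrez IDs, of which 25275 matched a RefSeq symbol. Library totals ran from 9171131 to 13217909 counts.

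Raw counts of both eyes were summed per mouse and tested with edgeR 4.0.16 (R 4.3.3), TMM scaling and terms for batch and age, with 3 residual degrees of freedom and Benjamini-Hochberg adjustment over 14219 genes; DESeq2 1.42.0 was an alternative. Log2 CPM used a prior count of 1. The labels do not say that mice of one number are related. The members and lists were chosen with earlier results of these data known. Named genes were the members, fixed oxidase subunits, up to 3 called genes per list and direction, or the 2 with the smallest p, and the 3 nearest by correlation; 2 genes that this rule names are not reported here. Gene coordinates are from RefSeq, and exon lengths and gene overlaps are from GENCODE M21 on GRCm38. The printed Cybb and Nox4 upstream stretches lie inside the gene spans given for these genes. Deviations from group means correlated between mice of the same number at 0.769, 0.608 and 0.848, but mice 1 and 2 of batch 1 also did across numbers (0.523 and 0.612), so the correlation follows the batch.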

Additional observations from a re-analysis of the deposited data

How the results depend on the processing

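With 3 mice per age, the calls of the members moved with the model while the direction did not. The 3 called members became 6 with DESeq2 on mouse sums, 0 without a batch term, 0 with the mouse number as replicate block, 7 with each eye as a sample in edgeR, 7 in DESeq2 on batch-corrected counts, 0 with left eyes only and 0 with right eyes only. Without one mouse at a time the count ran from 0 to 7. It was 7 without 5-month mouse 3 and 7 without 22-month mouse 3, which leave the age difference to batch 1, and 0 without any other mouse. Calls over all genes shifted likewise, to 1251 lower and 1729 higher when 5-month mouse 3 was left out and 1266 and 1724 when 22-month mouse 3 was, against 73 and 334, 26 and 78, 0 and 4, and 0 and 1 without 5-month mouse 1, 5-month mouse 2, 22-month mouse 1 and 22-month mouse 2. The 5 called genes of the related lists became 24 with DESeq2 on mouse sums (8 lower and 16 higher), 0 without a batch term, 29 with each eye in edgeR, 32 with each eye in DESeq2 and 0 with right eyes only, and ran from 0 to 31 without one mouse; the replicate block gave 4. Over all genes, the 321 lower and 769 higher calls became 863 and 1502 with DESeq2 on mouse sums, 0 and 2 without a batch term, 183 and 644 with the replicate block, 1263 and 1695 with each eye in edgeR, 1374 and 1949 with each eye in DESeq2, 67 and 111 with left eyes, and 3 and 9 with right eyes. The cause was not tested.

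The members' log2 fold changes over the 17 alternatives were 1.17 to 1.70 for Nox4, 0.70 to 1.18 for Cybb, 0.42 to 0.76 for Cyba, 0.53 to 1.05 for Ncf1, 0.61 to 1.50 for Ncf4, 0.51 to 1.09 for Rac2 and 0.39 to 0.50 for Xdh. Members called between batches stayed at 2 and between eyes at 0 under every alternative fitted. For the age difference by batch, DESeq2 called 1 member (146 lower and 83 higher over all genes) and edgeR 0. Ncf4 had the fewest counts, 43 to 184 per mouse.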
